A study of Mus musculus with 18 samples.

Results

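Gata4, Gata6, Sox7, Sox17, Ttr, Afp, Apoa1, Dab2, Cubn and Amn are 10 genes that encode transcription factors of the early endoderm, proteins that endoderm secretes and the endocytic machinery with which it takes protein up. They were followed in ESD3 mouse embryonic stem (ES) cells with and without knockdown of hypoxanthine guanine phosphoribosyltransferase (HPRT), the purine salvage enzyme that is deficient in Lesch-Nyhan disease. Every probe whose array symbol equals one of these names was taken, which gave 16 of the 45281 probes and 10 of the 30869 gene symbols. Dab2 has 4 probes, Sox7 has 3, Sox17 has 2 and each other gene has 1. Where a gene has more than 1 probe, the values are those of its brightest probe over the 18 arrays unless another is named.

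Primitive endoderm is the epithelium that forms on the surface of the inner cell mass and of ES cell aggregates, and it later gives rise to the visceral and parietal endoderm around the embryo. GATA6 and GATA4 are zinc finger factors of this lineage, and SOX17 and SOX7 are HMG box factors of the SoxF group that act with them. SoxF genes are also active in endothelium, and GATA4 and GATA6 also act in the heart. Visceral endoderm nourishes the embryo before the placenta works. It secretes plasma proteins such as alpha-fetoprotein (Afp), transthyretin (Ttr, the carrier of thyroxine and of retinol-binding protein) and apolipoprotein A-I (Apoa1, the main protein of high-density lipoprotein), and it takes up protein through cubilin (Cubn). Cubilin has no membrane span of its own and is carried to the cell surface by amnionless (Amn), and the adaptor DAB2 couples such receptors to clathrin. None of the secreted or uptake genes is restricted to endoderm: transthyretin is also a product of the choroid plexus, and Dab2 is also found in fibroblasts and macrophages.

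The ESD3 line derives from mouse strain 129s2/SvPas. Both cell types carried a viral short hairpin RNA, directed against luciferase in the control cells (here WT control) and against HPRT in the knockdown cells. Each was sampled at 3 stages of a protocol for dopaminergic neurons: the undifferentiated ES stage, kept on mouse embryo fibroblast feeders with LIF and bFGF; the stage of spherical neural masses (SNM), which are floating aggregates of neural progenitors; and the final neuronal stage. This gave 6 conditions with 3 Illumina MouseWG-6 v2 arrays each, 18 arrays in all. RNA of replicate cultures was pooled before hybridisation, so every interval and p-value reflects only how well the arrays repeat, with the cultures mixed beforehand, and 3 arrays a condition limit the precision. In such bulk RNA, a lower share of a cell type and less RNA of a gene in each cell cannot be told apart.

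Signals are given as log2 of the background-corrected, quantile-normalized intensity, on which the undetected signals of all probes of these 10 genes lay between 4.19 and 4.87. A probe was detected on an array at a detection p-value under 0.05. It was tested where all 3 arrays of at least 1 compared condition detected it, and called where the limma adjusted p-value was under 0.05 and the change at least 1.5-fold. Undetected signals counted in that change, so a gene could be called where its lower bound, given as "at least", was under 1.5-fold. Arrays detected between 18827 and 22202 probes. The knockdown was present at each stage: for the brightest Hprt1 probe, the array's name for HPRT, the log2 change of knockdown against control was -4.09 in ES cells, -1.76 in SNM and -4.45 in neuronal cultures. The stage labels were checked on markers. All 15 pluripotency genes were detected on every array of both ES conditions, and between ES and SNM 15 of 15 fell in control cells and 14 of 15 fell in knockdown cells. Of 13 neuronal genes, 8 were detected on all 3 arrays of each ES condition, against 11 in control and 10 in knockdown cells at the SNM stage, and again 11 and 10 at the neuronal stage. From SNM to neuronal cultures, 6 of 11 tested rose and 1 fell in control cells (median 0.84). Of all probes, 14.3% were called higher and 15.1% lower. In knockdown cells 1 of 10 rose and 7 fell (median -1.14), against 13.8% and 14.8% of all probes. As a set, these genes thus rose into the neuronal stage in control cells only. Levels differed at the neuronal stage, where 8 of 11 tested neuronal genes were lower in knockdown cells and 0 higher (median -1.34, with Stmn2 at -3.07 and Ina at -3.57), as were 11 of 14 pluripotency genes, with 1 higher. These shifts go with each change between knockdown and control cells given for that stage, and their part in those changes was not tested.

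Cubn and Amn encode the partners of 1 receptor, and their promoters are shown because both genes were higher in knockdown cells at the neuronal stage. RefSeq promoter windows were found for 5 of the 10 genes (Afp, Dab2 with 2 starts, Apoa1, Cubn and Amn; build GRCm38.p6) and not found for Gata4, Gata6, Sox7, Sox17 and Ttr. The 250 bases before the annotated start lie at chr2:13491877-13492126 on the minus strand for Cubn and at chr12:111270846-111271095 on the plus strand for Amn. They are written 5′ to 3′ on the strand of the gene, with matches to the motifs searched in capitals.
Cubn: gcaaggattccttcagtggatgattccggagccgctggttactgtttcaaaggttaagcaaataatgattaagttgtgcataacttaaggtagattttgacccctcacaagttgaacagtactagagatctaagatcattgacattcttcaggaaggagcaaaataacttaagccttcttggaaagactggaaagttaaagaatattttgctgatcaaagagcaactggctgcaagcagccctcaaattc
Amn: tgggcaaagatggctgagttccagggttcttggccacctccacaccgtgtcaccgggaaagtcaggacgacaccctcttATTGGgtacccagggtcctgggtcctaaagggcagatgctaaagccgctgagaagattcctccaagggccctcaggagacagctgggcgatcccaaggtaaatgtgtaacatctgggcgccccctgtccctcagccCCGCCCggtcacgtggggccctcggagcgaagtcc
Motifs were searched on both strands. The words for GATA factors were AGATAA and its variant TGATAA, and the core word for SOX factors was ACAAT. The general promoter elements were the GC box with the letters GGGCGG, the box named by its letters CCAAT and the TATA box with the letters TATAAA. The Amn window held 1 CCAAT match, written ATTGG on the strand shown, 171 to 167 bases before the start, and 1 GC box match, written CCGCCC, 35 to 30 bases before it. The Cubn window held none of the 5 motifs. Among all 32851 promoter windows of this length, 33.8% held CCAAT, 32.7% the GC box, 27.7% ACAAT, 16.6% a GATA word and 12.4% TATAAA. Of the 6 windows of the 10 genes, 1 held a GATA word (TGATAA, 179 to 174 bases before the upstream start of Dab2) and none held ACAAT. GC content was 39.6% for Cubn and 61.2% for Amn.

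At the ES stage, 7 of the 10 genes could be tested and Amn was the one called, higher in HPRT-knockdown cells; 1.68% of all probes tested were called there (0.516% higher and 1.17% lower). At the SNM stage, 8 were tested: Gata6, Ttr, Apoa1 and Cubn were called higher and Dab2 lower, where 19.9% of all probes were called (11% higher and 8.9% lower). At the neuronal stage, 7 were tested and 5 were called, Gata6, Sox17, Ttr, Cubn and Amn, all higher in knockdown cells, where 27.4% of all probes were called (13.9% higher and 13.5% lower). The median log2 change of the tested genes was -0.22 for ES cells, 0.65 for SNM and 1.07 for neuronal cultures, against medians of 0.01, -0.04 and 0.01 over all probes tested. Gata4 and Afp passed the detection requirement in no comparison. Apoa1 passed through a single condition, knockdown cells at the SNM stage, so that its comparisons with that condition could only be tested where it was high. Cubn was undetected in control SNM cells, and each of its comparisons with them was likewise tested only through the condition where it was high. Both genes are included in the counts and the median of the SNM stage.

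**Figure D1:**
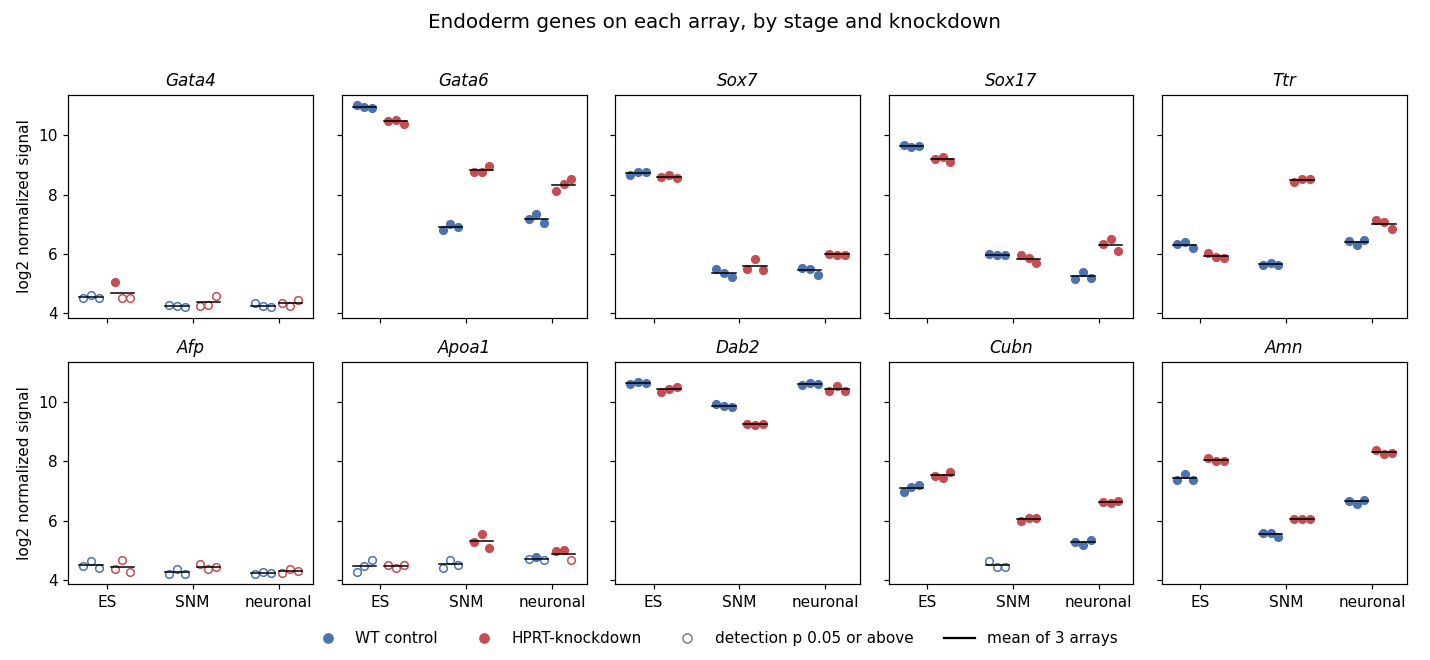
Log2 normalized signal of the representative probe of each of the 10 genes on each of the 18 arrays, by stage, with WT control in blue, HPRT-knockdown in red, open points where the detection p-value was 0.05 or above and a bar at the mean of 3 arrays. Gata6, Sox7 and Sox17 were highest at the ES stage, Ttr and Apoa1 in knockdown SNM, and Afp was detected on no array.

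**Figure D2:**
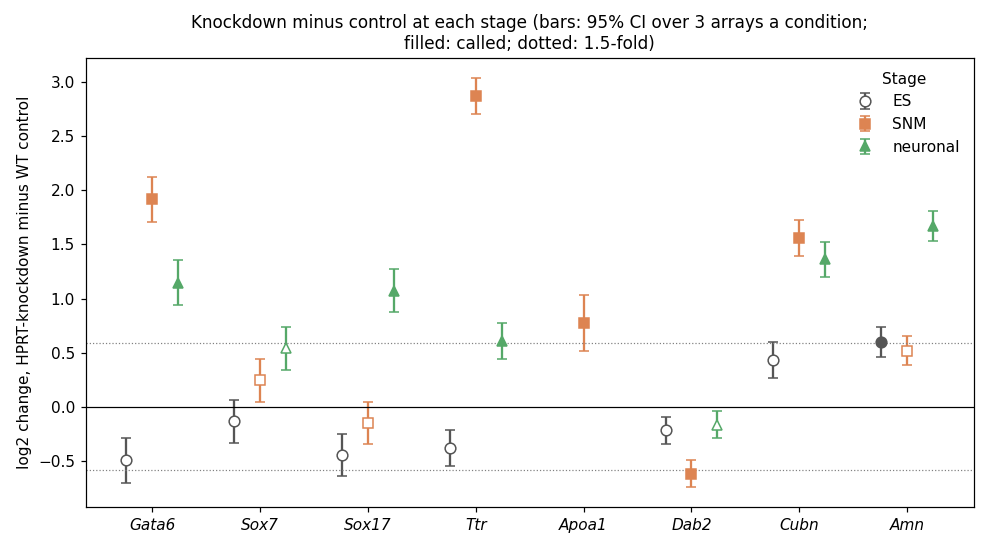
Log2 change, HPRT-knockdown minus WT control, at each stage for the 8 genes with a tested comparison; bars are 95% confidence intervals over 3 arrays a condition from the limma model, filled symbols are called and dotted lines mark 1.5-fold. The largest change is that of Ttr at the SNM stage (2.87), and at the ES stage only Amn is called.

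Gata6, on chromosome 18, was detected on all 18 arrays, with its highest signals at the ES stage. Its log2 signals at the ES stage were 11.03, 10.96 and 10.92 on the control arrays and 10.48, 10.54 and 10.40 on the knockdown arrays. At the SNM stage they were 6.80, 7.02 and 6.90 in control and 8.77, 8.75 and 8.96 in knockdown cells. Neuronal cultures gave 7.16, 7.34 and 7.04 for control and 8.12, 8.35 and 8.52 for knockdown cells. Control and knockdown arrays overlapped at no stage, with control above knockdown at the ES stage and below it at both later stages. The difference at the ES stage was -0.49 (SE 0.10, adjusted p = 0.00436), short of 1.5-fold and not called. Gata6 was 3.78-fold higher in knockdown cells at the SNM stage (log2 change 1.92, SE 0.10, adjusted p = 2.63e-10) and 2.22-fold higher at the neuronal stage (1.15, adjusted p = 4.77e-08). The knockdown effect on Gata6 was larger at the SNM than at the ES stage by 2.41 (SE 0.14, adjusted p = 2.65e-09). Between SNM and neuronal cultures it fell by 0.77 (adjusted p = 0.00026).

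Sox17, which in the mouse marks extraembryonic and definitive endoderm, was higher in knockdown cells at the neuronal stage and not called at the earlier 2 stages. At the ES stage its log2 signals were 9.67, 9.63 and 9.63 in control and 9.20, 9.28 and 9.11 in knockdown cells, apart from each other but within 1.5-fold (-0.45, adjusted p = 0.00583). SNM signals were 5.99, 5.97 and 5.96 in control and 5.95, 5.86 and 5.68 in knockdown cells, and the difference did not pass the test (-0.15, 95% confidence interval -0.35 to 0.05, adjusted p = 0.188). In neuronal cultures the control arrays gave 5.15, 5.37 and 5.18 and the knockdown arrays 6.34, 6.50 and 6.09. All knockdown arrays lay above all control arrays there, and Sox17 was 2.10-fold higher (1.07, SE 0.09, adjusted p = 4.99e-08). With quantile normalization and no background correction this change was 0.57 and was not called. From SNM to neuronal cultures the knockdown effect on Sox17 grew by 1.22 (SE 0.13, adjusted p = 1.07e-06). The second Sox17 probe gave the same 3 calls between knockdown and control (none, none, and 1.37 at the neuronal stage).

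Sox7, on chromosome 14, was highest at the ES stage and was called between knockdown and control at no stage. Its log2 signals at the ES stage were 8.67, 8.75 and 8.77 in control and 8.59, 8.65 and 8.56 in knockdown cells. SNM signals of 5.49, 5.34 and 5.20 in control and 5.48, 5.83 and 5.46 in knockdown cells overlapped. In neuronal cultures the knockdown arrays, at 6.004, 5.97 and 5.96, lay above the control arrays, at 5.53, 5.48 and 5.30. The difference was 0.54 (SE 0.09, adjusted p = 0.000111), a 1.45-fold change just under the threshold of 1.5-fold. The 2 brighter Sox7 probes fell together between the ES and the SNM stage in control cells, by 3.39 and by 2.77. The remaining probe, which carries no RefSeq accession in the array annotation, changed by -0.34 and was not called.

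Gata4, the related GATA gene on chromosome 14, was detected on 1 of 18 arrays, a knockdown array of the ES stage with a log2 signal of 5.04. Its other signals lay between 4.20 and 4.61, and its 6 condition means spanned 0.44. On all arrays but that one, Gata4 was not above background.

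**Figure D3:**
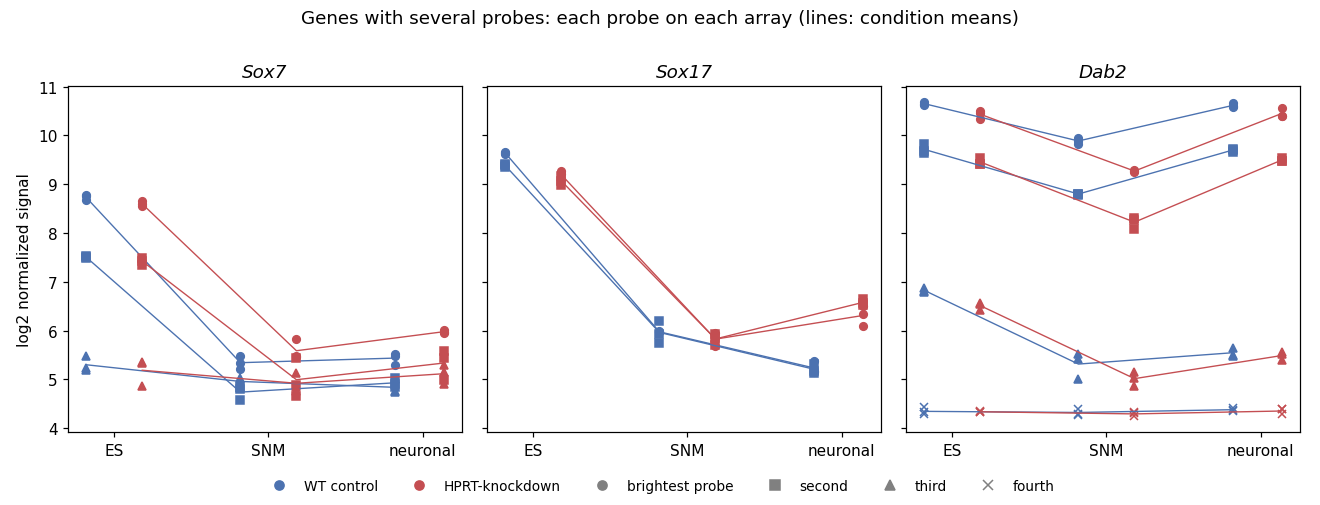
Log2 normalized signal of every probe of Sox7, Sox17 and Dab2 on each array (symbols by order of brightness) with lines through the means of each cell type (WT control blue, HPRT-knockdown red). Both Sox17 probes run together, the dimmest Sox7 probe stays between 4.74 and 5.49, and the fourth Dab2 probe stays at the level of undetected probes.

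Ttr showed the largest knockdown effect of the 10 genes. Its log2 signals at the ES stage were 6.33, 6.41 and 6.20 in control and 6.02, 5.90 and 5.87 in knockdown cells. SNM signals were 5.61, 5.70 and 5.61 in control and 8.44, 8.54 and 8.54 in knockdown cells. Neuronal cultures gave 6.43, 6.31 and 6.47 for control and 7.14, 7.07 and 6.85 for knockdown cells. The knockdown arrays lay below the control arrays at the ES stage, far above them at the SNM stage and above them at the neuronal stage. Ttr was 7.3-fold higher in knockdown SNM (2.87, SE 0.08, adjusted p = 1.45e-13), where control cells had their lowest Ttr signal of the 3 stages. Later, in neuronal cultures, the change was 0.61 (adjusted p = 5.15e-06), barely past 1.5-fold, and it was not called without replicate 1 (0.56) or without replicate 2 (0.54), nor with the 4 other background and scaling settings (0.42 to 0.56). At the ES stage it was -0.38 and not called. The knockdown effect rose by 3.25 between the ES and SNM stages (adjusted p = 6.22e-12) and fell by 2.26 between the SNM and neuronal stages (adjusted p = 7.51e-11).

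Choroid plexus genes were measured beside Ttr, since the plexus makes transthyretin in the brain. Of 19 such genes on the array, 16 were tested at the SNM stage, where 5 rose in knockdown cells and 1 fell, with a median log2 change of 0.08. Of all probes, 11% were called higher and 8.9% lower at that stage. Sostdc1, a secreted BMP and Wnt antagonist, rose by 3.36 and Lmx1a, a roof plate and floor plate factor, by 2.42. The homeobox gene Msx1 rose by 1.48 and the tight junction gene Cldn1 by 0.86, and Folr1, the folate receptor, was at least 1.64-fold higher. Car12, a carbonic anhydrase, fell by 0.79. Kl and Kcne2 were detected on no array of the knockdown cells at this stage, and Kl on no array of any condition. The summed normalized signal of the 19 genes, on the linear scale, ranged from 7007 to 7907 on control arrays and from 7542 to 8979 on knockdown arrays, which overlap. At the neuronal stage 17 were tested, with 6 higher and 4 lower, where 27.4% of all probes were called. The sums there were 6488 to 7297 in control and 15130 to 19019 in knockdown cells. Most of that gap was Enpp2, with means of 10.05 in control and 12.92 in knockdown cells, and Slc12a2, with means of 11.03 and 12.27. Both were singled out after their values were seen. Cldn2 (6.85 in control) was detected on no knockdown array. The part of choroid plexus cells in the Ttr values was not tested.

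Apoa1, on chromosome 9, was detected on all 3 knockdown arrays of the SNM stage, with log2 signals of 5.29, 5.54 and 5.07. In control cells of that stage, where no array detected it, they were 4.42, 4.66 and 4.50. The knockdown arrays were thus at least 1.45-fold above the control arrays (adjusted p = 6.29e-05). That bound is under 1.5-fold, so the call rests on the undetected control signals. Among neuronal arrays, 1 control array and 2 knockdown arrays detected it, with overlapping signals of 4.69, 4.77 and 4.67 in control and 4.96, 5.01 and 4.67 in knockdown cells. No ES array detected it. Its call at the SNM stage was lost with quantile normalization without background correction (0.36), with 75th percentile scaling (0.38) and with an offset of 50 (0.37). Afp, on chromosome 5, was detected on none of the 18 arrays and its signals lay between 4.19 and 4.67.

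Dab2, on chromosome 15, was detected on all arrays by its representative probe and was the one gene of the 10 called lower in knockdown cells at any stage. Its log2 signals at the SNM stage were 9.95, 9.89 and 9.83 in control and 9.28, 9.25 and 9.28 in knockdown cells, with no overlap. The change was -0.62 (SE 0.06, adjusted p = 2.92e-07), just past 1.5-fold. At the ES stage the signals were 10.63, 10.69 and 10.64 in control and 10.35, 10.46 and 10.50 in knockdown cells, a change of -0.22. Neuronal signals were 10.58, 10.66 and 10.61 in control and 10.39, 10.57 and 10.39 in knockdown cells, a change of -0.17, and neither was called. The other 2 detected Dab2 probes changed by -0.58 and -0.30 between the same SNM arrays, and the mean of the probes by -0.38, none of them past 1.5-fold. With quantile normalization and no background correction the change of the representative probe was also -0.58 and not called. The fourth probe was detected on no array.

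Cubn, the ligand-binding part of the receptor, was higher in knockdown cells at the SNM and neuronal stages. At the ES stage its log2 signals were 6.96, 7.14 and 7.19 in control and 7.49, 7.45 and 7.65 in knockdown cells (0.43, adjusted p = 0.00215, not called). Among SNM arrays, no control array detected it, with 4.64, 4.42 and 4.42, while the knockdown arrays gave 5.995, 6.07 and 6.10. Cubn was thus at least 2.45-fold higher there (adjusted p = 1.84e-10), in a test it entered only through the knockdown arrays. In neuronal cultures the control arrays gave 5.28, 5.17 and 5.34 and the knockdown arrays 6.62, 6.59 and 6.66. Control and knockdown arrays were apart at every stage, and the neuronal change was 2.57-fold (1.36, SE 0.08, adjusted p = 3.05e-10). The knockdown effect was larger at the SNM than at the ES stage by 1.13 (adjusted p = 8.7e-07), with Cubn undetected in 1 of the 4 conditions. This call was lost with an offset of 50 (0.47) and, without background correction, with quantile normalization (0.43) or 75th percentile scaling (0.50).

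Amn, on chromosome 12, had its highest signal in knockdown neuronal cultures. Its log2 signals at the ES stage were 7.39, 7.58 and 7.38 in control and 8.12, 8.01 and 8.03 in knockdown cells. SNM signals were 5.57, 5.58 and 5.45 in control and 6.07, 6.05 and 6.04 in knockdown cells. Neuronal signals were 6.68, 6.58 and 6.70 in control and 8.40, 8.26 and 8.29 in knockdown cells. Knockdown arrays lay above control arrays at each stage without overlap. The change was 0.60 in ES cells (1.52-fold, adjusted p = 3.69e-05), 0.52 in SNM (1.43-fold, not called) and 1.67 in neuronal cultures (3.18-fold, SE 0.06, adjusted p = 2e-12). The call at the ES stage was lost without replicate 1 (0.54) and without replicate 3 (0.58), with an offset of 50 (0.52) and, without background correction, with quantile normalization (0.49) or 75th percentile scaling (0.52). Without scaling between arrays the SNM change was 0.64 and was called. The knockdown effect was larger at the neuronal than at the SNM stage by 1.15 (adjusted p = 3.05e-08). Lrp2 (megalin), which works with cubilin in endocytosis, was higher in knockdown cells at the neuronal stage by 0.71 and was not called at the other 2 stages.

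In control cells, all 7 of the tested genes fell between the ES and the SNM stage, where 25.4% of all probes tested were called lower and 23.7% higher, 49.1% in all. Gata6 fell by 4.06, Sox17 by 3.67, Sox7 by 3.39 and Amn by 1.92, and Cubn was at least 5.05-fold lower. Ttr fell by 0.67 and Dab2 by 0.77. In knockdown cells, 6 of 8 tested genes fell and 2 rose over the same interval, where 30.9% of probes were called lower and 26.4% higher, 57.3% in all. Gata6 fell by 1.65 in these cells, Cubn by 1.48, Sox17 by 3.37, Sox7 by 3.01, Amn by 2.00 and Dab2 by 1.16. Ttr rose by 2.58 and Apoa1 was at least 1.29-fold higher. Tested as differences between the cell types, the changes of Gata6, Ttr, Apoa1 and Cubn were called, and those of Sox7 (0.38), Sox17 (0.30), Dab2 (-0.40) and Amn (-0.08) were not, where 21.3% of all probes were called (11.7% higher and 9.61% lower). Apoa1 entered that test only through knockdown SNM and was undetected in the other 3 conditions, so its difference has no defined size. The call on Ttr in control cells was lost with an offset of 50 (-0.44), without background correction (-0.38 and -0.45) and without scaling between arrays (-0.27). That on Apoa1 in knockdown cells was lost with 75th percentile scaling (0.18), quantile normalization (0.39) or an offset of 50 (0.39).

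Between the SNM and the neuronal stage, control cells had 7 tested genes, of which Ttr (0.77), Dab2 (0.73), Cubn (at least 1.42-fold) and Amn (1.12) rose and Sox17 fell by 0.74. Of all probes, 14.3% were called higher and 15.1% lower in that comparison, 29.4% in all. In knockdown cells, Dab2 (1.18) and Amn (2.27) rose and Ttr fell by 1.49, 3 calls among 8 tested genes, where 28.6% of all probes were called (13.8% higher and 14.8% lower). Sox17 changed by 0.48 in knockdown cells, under 1.5-fold, while its second probe rose by 0.75 and the mean of both probes by 0.62. Cubn changed by 0.57 in these cells and was called without replicate 2 (0.59). Gata6 was not called in either cell type (0.27 in control and -0.50 in knockdown cells), yet the difference between these was called (-0.77). The differences were also called for Sox17 and Amn, which moved up in knockdown relative to control cells, and for Ttr and Apoa1, which moved down, 5 of 8 tested genes with Apoa1, whose difference again has no defined size, where 28.6% of all probes were called (13.7% higher and 14.8% lower). The calls on Sox17, Ttr and Cubn in control cells were each lost with an offset of 50 (-0.43, 0.50 and 0.36) and with both settings without background correction. That on Dab2 was lost with the mean of its probes, the undetected one included (0.48). The difference for Apoa1 was not called without replicate 1 or without replicate 2.

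**Figure D4:**
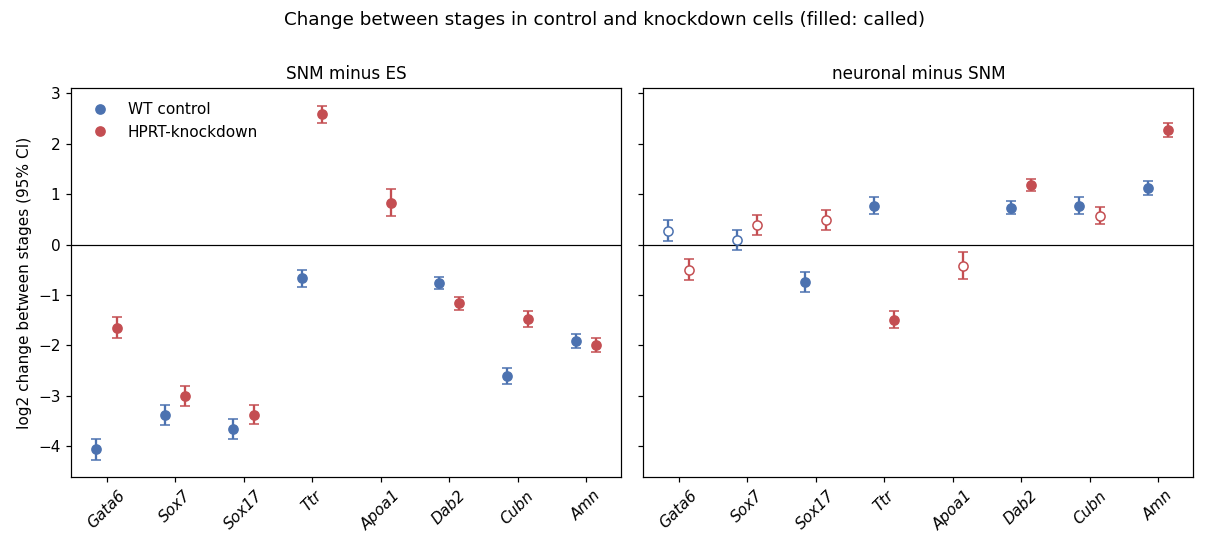
Log2 change between stages in WT control (blue) and HPRT-knockdown cells (red), SNM minus ES on the left and neuronal minus SNM on the right, with 95% confidence intervals over 3 arrays a condition; filled points are called. Ttr falls in control cells (-0.67) and rises in knockdown cells (2.58) between ES and SNM, and Gata6 falls by 4.06 in control and by 1.65 in knockdown cells.

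The order of the 6 conditions differed between the genes. Gata6, Sox7 and Sox17 had their 2 highest means in control and knockdown ES cells, in that order. Cubn had its highest in knockdown and then control ES cells, Amn in knockdown cells of the neuronal stage and Ttr in knockdown cells of the SNM stage. For Gata6, Sox17, Cubn and Amn, the arrays of neighbouring conditions in this order overlapped nowhere. For Ttr, neuronal control and ES control cells overlapped, and for Sox7, knockdown SNM overlapped control neuronal cells and these overlapped control SNM cells. For Dab2, control ES overlapped control neuronal cells, and knockdown neuronal overlapped knockdown ES cells.

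Other genes of the same biology were counted to set the 10 beside their lineage. Genes of every list were tested by the same rule, so some entered a comparison only through the condition where they were high. Of all probes tested, 1.68% were called at the ES, 19.9% at the SNM and 27.4% at the neuronal stage. Of 25 further endoderm factors and signals, 17 were tested at the ES stage, where Gsc alone was called (at least 1.3-fold higher in knockdown cells). In SNM, 19 were tested, with 4 higher and 3 lower in knockdown cells and a median change of -0.19. The forkhead factors Foxa1 and Foxa2, used in endoderm and in the floor plate, rose by 2.27 and 1.05, and Nodal, a ligand of early endoderm induction, fell by 0.90. At the neuronal stage 16 were tested, with 4 higher and 5 lower. Foxa1 rose by 2.00 and Foxq1 by 1.80, and the LIM homeobox gene Lhx1 fell by 3.33. Gata5 was detected on no array, and Hnf4a, a nuclear receptor of visceral endoderm and liver, was called at no stage between knockdown and control.

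Of 20 basement membrane, keratin and other genes known from parietal and primitive endoderm, all were tested. At the ES stage Plat alone was called, lower by 0.64 in knockdown cells. In SNM, 10 rose and 1 fell with the knockdown, with a median of 0.65 against -0.04 over all probes. Of all probes, 11% were called higher and 8.9% lower there. The keratin Krt19 was undetected on the control arrays (4.81, 4.63 and 4.62) and gave 9.35, 9.12 and 9.05 on the knockdown arrays, at least 21.3-fold higher. Krt8 rose by 2.89 and Krt18 by 1.37. These keratins are found in simple epithelia of many kinds. Thrombomodulin (Thbd) rose by 1.95, tissue plasminogen activator (Plat) by 1.95 and Sparc by 1.16, and follistatin (Fst) fell by 1.07. The laminin chain Lama1 (0.56) and the collagen chain Col4a1 (-0.39) were not called. At the neuronal stage 7 were higher and 3 lower, where 13.9% of all probes were called higher and 13.5% lower. Among them were Plat (2.30), Krt19 (2.26) and Lama1 (1.14), which were higher, and the nidogen gene Nid2, lower by 1.75. Between ES and SNM, 16 of the 20 fell and 2 rose in control cells, where 25.4% of all probes were called lower and 23.7% higher. In knockdown cells 10 fell and 5 rose, where 30.9% were called lower and 26.4% higher. The proteoglycan gene Srgn fell by 5.81 and Lama1 by 3.99 in control cells.

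Of 35 genes of secretion, lipid transport and uptake, 11 were detected on no array, among them Alb, Apob, Apoa4, Fga and Fgb, which visceral endoderm and liver share. None of 19 tested was called at the ES stage. In SNM, 3 of 15 rose and 1 fell in knockdown cells, a share called near the 19.9% of all probes: apolipoprotein E (Apoe) rose by 2.88, Lrpap1, the chaperone of lipoprotein receptors, by 0.73 and Rbp4, which transthyretin binds in plasma, by 0.67, while transferrin (Trf) fell by 0.86. At the neuronal stage, where 27.4% of all probes were called, 9 of 18 rose and 1 fell. All 3 arrays detected 14 of the 35 genes in control and 18 in knockdown cells there, so some were tested only through the knockdown arrays. Trf rose by 5.12, from 6.15, 6.08 and 5.90 on the control arrays to 11.36, 11.17 and 10.96 on the knockdown arrays, Apoe rose by 3.00 and Spink3, a secreted trypsin inhibitor, by 2.61. Mttp, which loads apolipoprotein B with lipid, fell by 1.06. Trf and Apoe are also glial genes, and at this stage 18 of 18 tested oligodendrocyte genes were higher in knockdown cells, with a median change of 5.00. All 3 arrays detected 12 of these genes in control and 18 in knockdown cells, so the others were tested only through the condition where they were high. Their summed normalized signals were 10755 to 10999 on control and 103701 to 108741 on knockdown arrays. At the SNM stage, where Trf was lower and Apoe higher, 10 of 17 tested oligodendrocyte genes were lower and 3 higher, with a median of -1.01. The part of glial cells in these values was not tested.

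**Figure D5:**
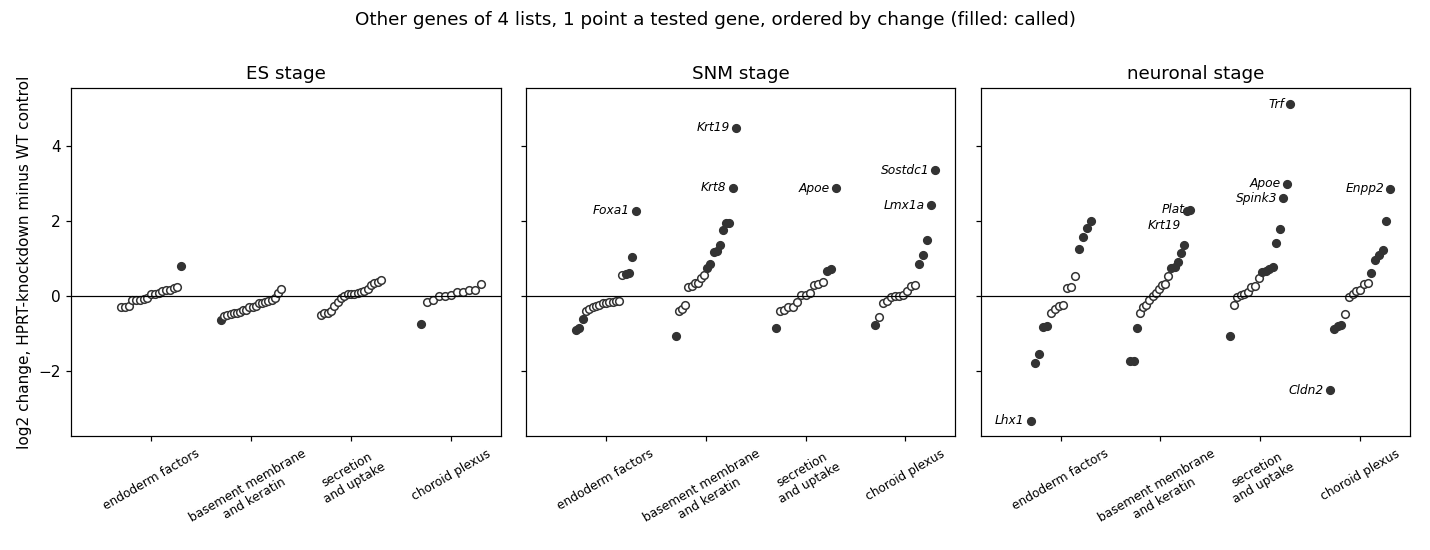
Log2 change, HPRT-knockdown minus WT control, of the tested genes of 4 lists at the 3 stages, 1 point a gene in order of change, filled where called; names are given for the largest called changes. Few points are filled at the ES stage, and Krt19, Krt8, Apoe, Foxa1, Sostdc1 and Lmx1a stand highest at the SNM stage.

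Markers of other cells that use the 10 genes were counted at the same stages, at which 1.68%, 19.9% and 27.4% of all probes were called. Of 20 endothelial genes, 12 were tested at the ES stage (0 higher and 1 lower in knockdown cells), 17 at the SNM stage (6 higher and 2 lower) and 12 at the neuronal stage (3 higher and 4 lower). In neuronal cultures, where Sox17 was higher in knockdown cells, their summed signal was lower, between 3604 and 3681 against 6326 to 6699 on control arrays. Most of that gap was endomucin (Emcn, -1.90), without which the sums were 2675 to 2789 in knockdown and 2998 to 3188 in control cells. Mean levels of Cdh5 (6.83 in control and 6.10 in knockdown cells), Eng (6.01 and 4.62) and Robo4 (5.45 and 4.52) were also lower. Eng and Robo4 were detected on no knockdown array. Flt1 (1.18), Vwf (1.62) and Ets1 (0.67) were higher in knockdown cells. Of 19 heart genes, 11 were tested at the SNM stage (6 higher and 0 lower). All 3 arrays detected 7 of them in control and 11 in knockdown cells there. The others, Hand2, Nppa and Sln among them, were thus tested only through the condition where they were high. At the neuronal stage 11 were tested (1 higher and 8 lower), with summed signals of 428 to 454 in knockdown and 23592 to 24041 in control cells. Most of the control sum came from Myl4, Actc1 and Sln, which skeletal muscle also uses, and without them the sums were 324 to 366 and 1544 to 1902. Most of the remaining control sum was Mef2c (mean 10.07 in control and 7.46 in knockdown cells). At that stage, 9 of the 19 heart genes were detected on all 3 control arrays. Among them were Myl2 (mean 7.84) and Myh6 (5.65), detected on no knockdown array, and Nkx2-5 (5.09 in control and 5.07 in knockdown cells). Tbx5, Tbx20, Hand1, Myl7, Nppa and Tnni3 were detected on no control array there. These genes and Emcn were singled out after their values were seen. Gata6 was higher in knockdown cells at both of these stages. Of 22 fibroblast genes, 4 of 13 tested were lower in knockdown cells at the ES stage, 5 of 22 were higher and 1 lower at the SNM stage, and 1 of 22 was higher and 17 lower at the neuronal stage. The summed fibroblast signal at the ES stage was 2535 to 2543 in control and 1608 to 1702 in knockdown cells. These cultures held feeder fibroblasts. All 3 arrays detected 13 of the 22 genes in control and 10 in knockdown ES cells, while Col1a1, Lum, Postn and Pdgfrb were undetected in both. Of 20 macrophage genes, 4 were tested at each stage, and Emr1, Lyz2, Itgam, C1qa, C1qb and C1qc were detected on no array of any condition. The part of these cell types in the values of Gata6, Sox17 and Dab2 was not tested.

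For each gene whose condition means spanned at least 2 on the log2 scale, the 3 named genes with the most similar course over the 18 arrays were sought among 10439 detected probes whose means spanned at least 1. Gata6 was followed most closely by Arntl (Pearson's r = 0.986), Arhgap6 and Atp2a3, Sox7 by Trim25 (r = 0.997), Plaur and Gcnt2, and Sox17 by Napg (r = 0.992), Tmc6 and Ptpn14. Ttr was followed by BC021891 (r = 0.962), the ventral forebrain factor Nkx2-1 (r = 0.955) and Dynlrb2. Cubn was followed by Mras (r = 0.967), Tmem166 and Nfe2l2, and Amn by Slc24a6 (r = 0.968), Prkcz and Adamtsl4. The 18 arrays come from 6 RNA pools, so these values describe 6 courses and carry no test.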

How the data were processed

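The authors hybridised biotin-labelled RNA to 18 Illumina MouseWG-6 v2 arrays and deposited the bead-averaged signal intensity of every probe, neither background-corrected nor normalized, and the detection p-value, the share of negative-control beads brighter than the probe. Groups came from the sample titles. A second deposited table supplied probe symbols and accessions only, and its 72 columns of per-sample values, named by chip and position, were not used.

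Intensities were corrected with neqc of limma 3.58.1 (R 4.3.3; background from the detection p-values, offset 16, quantile normalization, log2). One limma model of the 6 conditions was fitted to all probes, and two-sided p-values were adjusted over all probes tested (Benjamini-Hochberg). With 3 arrays a condition, the smallest p-value of an exact permutation test is 0.1. The procedure was tested on simulated data. Where no array of a condition detected a probe, the fold is a lower bound, set against the higher of the probe's signal and the lowest signal detected on each array. The threshold of 1.5-fold was applied to the modelled change and not to this bound. Calls on Apoa1, Cubn and Gsc given with a bound under 1.5-fold therefore rest on undetected signals. Promoter windows were read with Python 3.11.15.

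All 10 genes are named, with the listed genes that changed most or work with them, and for each gene with a span of at least 2 on the log2 scale the 3 genes of highest correlation, leaving out clone, LOC and Rik symbols. The 10 genes and all gene lists were chosen with earlier results of these data known. Array numbers come from the titles. Deviations of equal-numbered arrays correlated above 0.1 in every pair for knockdown against control at the SNM stage (0.49, 0.11 and 0.49) and for knockdown cells between the SNM and neuronal stages (0.52, 0.14 and 0.51). Alternatives were quantile normalization or 75th percentile scaling without background correction, no scaling between arrays, an offset of 50, no detection filter or a detection p-value of 0.01, a minimum change of 2-fold or none, the mean of a gene's probes, a fit of the compared conditions alone, the replicate block, the methods' t-test and leaving out each array number.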

Additional observations from a re-analysis of the deposited data

Results flagged for a closer look

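The knockdown effect is the log2 change of HPRT-knockdown against WT control cells. By a limma test of the difference itself, it differed in at least 1 of the 2 comparisons of stages for 5 of 8 tested genes. Apoa1, which entered the test only through knockdown SNM, is among the 8 but left out of these 5. With Apoa1 counted, 4 of 8 were called between the SNM and ES stages, where 21.3% of all probes were. Between the neuronal and SNM stages 5 of 8 were called, where 28.6% of all probes were. The share of all probes called in at least 1 of the 2 comparisons was not counted. For Gata6 it was larger at the SNM than at the ES stage by 2.41 (SE 0.14, adjusted p = 2.65e-09) and differed by -0.77 between the neuronal and the SNM stage (adjusted p = 0.00026). For Ttr the differences were 3.25 (SE 0.11, adjusted p = 6.22e-12) between SNM and ES and -2.26 (adjusted p = 7.51e-11) between neuronal and SNM. For Cubn the effect was larger by 1.13 (SE 0.11, adjusted p = 8.7e-07) at the SNM than at the ES stage, with Cubn undetected in control cells at the SNM stage. For Sox17 it was larger by 1.22 (SE 0.13, adjusted p = 1.07e-06) and for Amn by 1.15 (SE 0.09, adjusted p = 3.05e-08) at the neuronal than at the SNM stage.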

How the results depend on the processing

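Counts of calls here include Apoa1. Of 68 gene changes, none that was called as reported or in an alternative run reversed its direction between them. Changes of sign in values called in neither were not counted. Under at least 1 alternative, 34 of the 68 crossed the calling threshold. With quantile normalization and no background correction, the calls among the 10 genes between knockdown and control numbered 0 in ES cells, 3 in SNM and 3 in neuronal cultures (1, 5 and 5 as reported), 2 between control SNM and neuronal cells (5), and 2 for the difference between the SNM and ES effects (4). With 75th percentile scaling and with an offset of 50, these were 0 at the ES stage, 2 between control SNM and neuronal cells and 2 for the SNM and ES difference. With a minimum change of 2-fold, they were 0 for ES cells, 3 for SNM, 1 between control SNM and neuronal cells and 3 for the difference between the neuronal and SNM effects (5). With no minimum change, they were 6 at the ES stage and 8 between knockdown SNM and neuronal cells (3). The methods' t-test with Benjamini-Hochberg adjustment called 0 at the ES stage. Leaving out an array number gave 0 to 1 calls at the ES stage. The replicate block changed no call, with 1, 5 and 5 calls at the 3 stages. Without scaling between arrays, the median of all probes shifted by 0.28 in control and 0.23 in knockdown cells between ES and SNM. Larger offsets shrink changes of dim probes by construction, and Sox17, Ttr, Cubn and Apoa1 lie near background in some conditions; other causes were not tested.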
